A study of Mus musculus with 6 samples.

Results

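The interferon regulatory factors are a family of transcription factors, and 8 of their genes (Irf1, Irf2, Irf3, Irf4, Irf5, Irf7, Irf8 and Irf9) are described here, out of 30142 mouse genes that had a probe set of their own on the arrays. A gene was included when a row of the deposited value table was paired with its symbol and no other, and the row with the highest mean over the 6 arrays stood for the gene. All 8 genes had such a row, and Irf1 had a spare one. RNA levels were compared between 3 arrays of Ppara-/- leukemia and 3 arrays of Ppara+/+ leukemia. Both leukemias had been started by MLL-AF9, a fusion oncogene carried with green fluorescent protein (GFP) on the MSCV retrovirus, in cells of Ppara-/- or Ppara+/+ mice, and the GFP-positive cells were sorted from the bone marrow of secondary recipients. Mice of both genotypes had been bought and backcrossed. Ppara encodes PPAR alpha, a receptor in the nucleus that fatty acids activate. The labels give neither the age nor the strain of the recipients. They also do not say whether the replicates of a genotype go back to different mice or to 1 primary leukemia, and a p-value here reflects only how far the 6 samples vary, which may be technical.

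Interferon regulatory factors bind DNA through a shared amino-terminal domain that reads repeats of GAAA, the core of the interferon-stimulated response element. IRF3, IRF5 and IRF7 wait in the cytoplasm until kinases downstream of Toll-like receptors and of sensors of foreign nucleic acid phosphorylate them, IRF9 is part of the complex ISGF3 that carries the type I interferon signal, and IRF1 is made in response to interferon gamma, with IRF2 as its counterpart on many of the same sites. IRF4 and IRF8 act mainly in blood cells, often beside the factor PU.1. IRF8 steers marrow progenitors of the mouse towards monocytes and dendritic cells and away from neutrophils.

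The deposited values are log2 signals from an Affymetrix array, where a difference of 1 is a doubling of signal. A signal has no fixed relation to the RNA level across different probe sets, so each gene was compared with itself between genotypes and with the negative controls of the same array. The 5222 negative-control probe sets had medians of 4.63 to 5.16, highest on Ppara+/+ replicate 1 (5.16) and Ppara-/- replicate 2 (4.99), and the lowest of their 95th percentiles was 7.91. Ppara itself read 5.05 to 5.29 on the Ppara-/- arrays, against 4.87 to 5.19 on the Ppara+/+ arrays, which is near the negative controls and does not check the genotype labels. Of 10 measured marker genes of the leukemic myeloid cell 8 had a mean above 7.91, and none passed the test between genotypes. At an unadjusted limma p under 0.05 stood 4 of them, named after their values were seen, beside 5.78% of all genes. Their log2 differences (Ppara-/- minus Ppara+/+) were 0.88 for Hoxa5, 0.54 for Kit, 0.35 for Hoxa10 and -0.87 for Cd34 (limma adjusted p of 0.393 to 0.797).

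Some genes of the family are themselves induced by interferons, so their promoters were searched for the DNA elements of that response. The stretches with a match are given here, with that of Irf5, the factor with the smallest p in the comparison. RefSeq windows of the GRCm38.p6 assembly, 250 bases before to 50 bases after a gene's start, were found for all 8 genes, with 11 windows in all. They were searched on both strands for 3 motifs. These were a core of the interferon-stimulated response element (GAAA, any 2 bases, GAAA), the gamma-activated site bound by STAT dimers (TTCNNNGAA, the same on both strands) and a form of the PPAR response element (AGGTCA, any 1 base, AGGTCA). The first and the second of them occurred in 3.44% and 8.3% of all 32851 windows, and the PPAR form in 0.0396%. The gamma-activated site occurred in the windows of Irf1, Irf2 and Irf8, the interferon-stimulated core in that of Irf2, and the PPAR form in none of the 11. A match is a stretch of letters, not a shown binding site. No match overlapped another. The stretches, all on the plus strand and read 5′ to 3′, have the matches in capitals. They lie at chr11:53769899-53769957 for Irf1, chr8:46739495-46739554 for Irf2, chr8:120736162-120736238 for Irf8 and chr6:29526525-29526624 for Irf5.
Irf1: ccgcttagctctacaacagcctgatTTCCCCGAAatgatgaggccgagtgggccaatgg
Irf2: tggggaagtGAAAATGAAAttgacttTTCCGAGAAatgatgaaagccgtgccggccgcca
Irf8: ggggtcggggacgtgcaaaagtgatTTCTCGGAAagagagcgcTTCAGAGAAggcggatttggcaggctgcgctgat
Irf5: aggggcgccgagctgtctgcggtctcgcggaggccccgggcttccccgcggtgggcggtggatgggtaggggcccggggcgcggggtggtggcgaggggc

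The site of Irf1 began 90 bases before the start, and those of Irf8 began 171 and 153 bases before it. In Irf2 the interferon-stimulated core began 241 bases and the gamma-activated site 224 bases before the start. The Irf5 stretch is the 100 bases just before its start, from a window of 74.7% G and C in which none of the searched motifs occurred.

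None of the 8 factors passed the test between genotypes. The genotypes were compared with limma in 1 fit of all 30142 genes, and p-values were adjusted by Benjamini-Hochberg. An adjusted p under 0.05 counted as passing, which 38 genes (0.126%) reached. Irf5 and Irf8 were the 2 factors with an unadjusted p under 0.05 in limma, where 5.78% of all genes had one, and both had lower signals in Ppara-/- cells. They were also the 2 whose values did not overlap between genotypes. Such a separation was found in 8.78% of all genes, and with every Ppara-/- value below every Ppara+/+ value in 3.63%. Of the 8 differences 3 were positive and 5 negative, with a median log2 difference of -0.06 beside 0.02 for all genes.

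**Figure D1:**
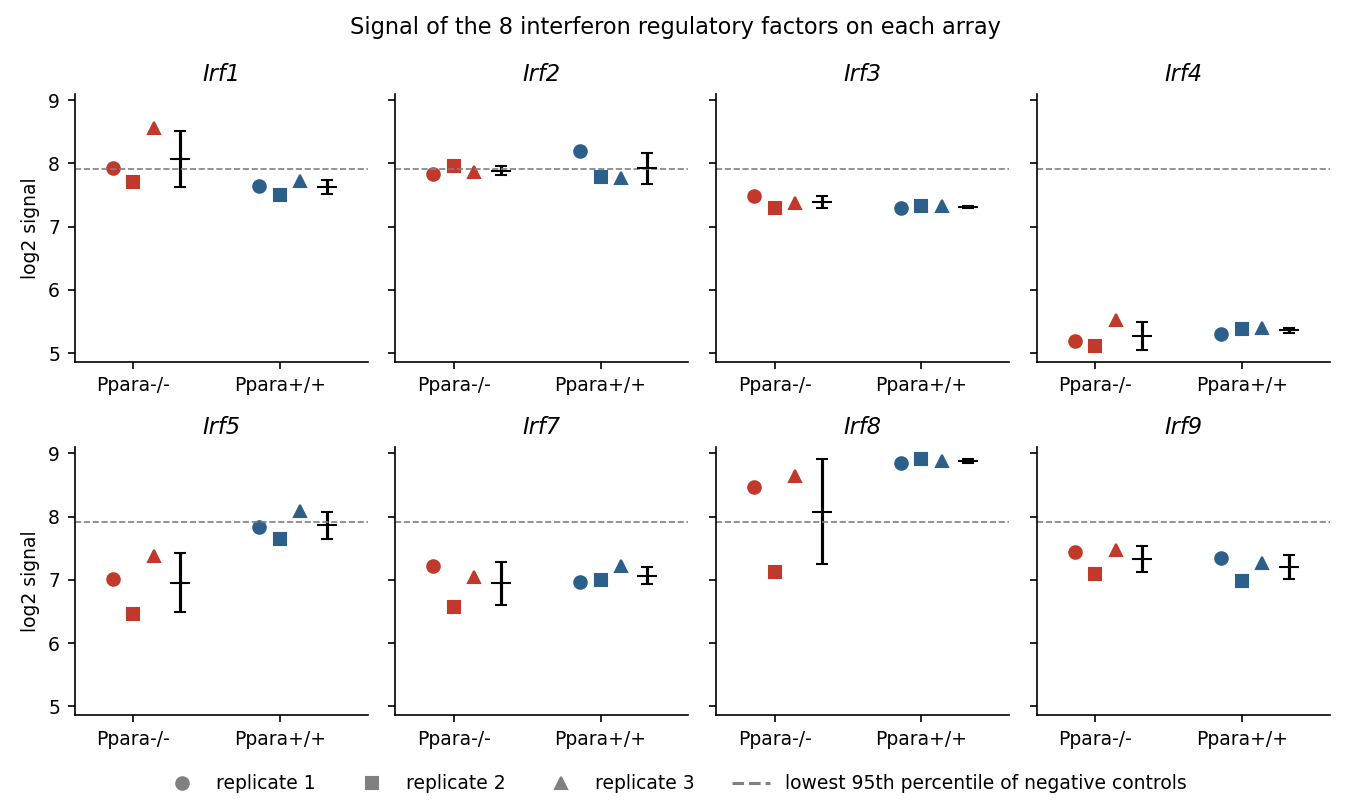
Log2 signal of each factor on the 6 arrays, with Ppara-/- in red on the left and Ppara+/+ in blue on the right of each panel; black marks give the mean and SD of 3 arrays, and the dashed line at 7.91 marks the 95th percentile of negative controls on the array where it was lowest. The Ppara-/- points lie below all Ppara+/+ points in Irf5 and Irf8, and Ppara-/- replicate 2 stands apart in Irf8 at 7.13.

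Irf5 encodes a factor of Toll-like receptor signalling that drives inflammatory cytokine genes in macrophages. Its log2 signal was 7.02, 6.46 and 7.38 in Ppara-/- replicates 1, 2 and 3, against 7.84, 7.65 and 8.09 in Ppara+/+ replicates 1, 2 and 3. The highest Ppara-/- value lay 0.27 below the lowest Ppara+/+ value. The means were 6.95 ± 0.46 in Ppara-/- cells and 7.86 ± 0.22 in Ppara+/+ cells (SD, n = 3 each), a log2 difference of -0.91 (SE 0.22; limma adjusted p = 0.304, unadjusted p = 0.00306). This is a signal 1.87-fold lower in Ppara-/- cells, and 0.557% of all genes had a larger difference in either direction. The 95% interval of the signal ratio, Ppara-/- over Ppara+/+, was 0.376 to 0.758 and is not corrected for the number of genes. The exact two-sided permutation test gave p = 0.1, the smallest that 3 arrays against 3 allow.

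With 1 array left out the log2 difference of Irf5 lay between -1.12 and -0.66, and its unadjusted limma p between 0.000514 and 0.0137. Its smallest adjusted p over 17 other ways of processing was 0.064, reached with array weights estimated by limma. The Irf5 signal lay under the 95th percentile of the negative controls on each of the 6 arrays, above 76.7% of the controls on the array where it ranked lowest among them and above 94.3% where it ranked highest.

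Irf8 encodes the factor that commits myeloid progenitors to the monocyte and dendritic lines. It read 8.47, 7.13 and 8.64 in Ppara-/- replicates 1, 2 and 3, against 8.84, 8.91 and 8.88 in Ppara+/+ replicates 1, 2 and 3. The Ppara+/+ values spanned 0.07 and the Ppara-/- values 1.51, with replicate 2 far below the other two and all 3 under the lowest Ppara+/+ value. The means were 8.08 ± 0.83 in Ppara-/- cells and 8.88 ± 0.04 in Ppara+/+ cells (SD, n = 3 each), a log2 difference of -0.80 (SE 0.34; limma adjusted p = 0.853, unadjusted p = 0.0448; exact permutation p = 0.1).

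The size of the Irf8 difference rested on Ppara-/- replicate 2. Without that array it was -0.32 (limma unadjusted p = 0.0265, adjusted p = 0.594), and with each of the others left out it lay between -1.08 and -0.78. The unadjusted limma p was 0.011 to 0.0301 without a Ppara-/- array and 0.0772 to 0.0865 without a Ppara+/+ array. It was under 0.05 in 9 of 18 other ways of processing. Ppara-/- replicate 2 had the highest negative-control median of the 3 Ppara-/- arrays (4.99, against 4.63 and 4.65). Without it and Ppara+/+ replicate 1 the difference was -0.34, while with the negative-control median as a covariate it was -1.0 (limma adjusted p = 0.42 and 0.402). Irf8 lay above the 95th percentile of the negative controls on 5 of the 6 arrays, all but Ppara-/- replicate 2, where 86.2% of the controls were below it.

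**Figure D2:**
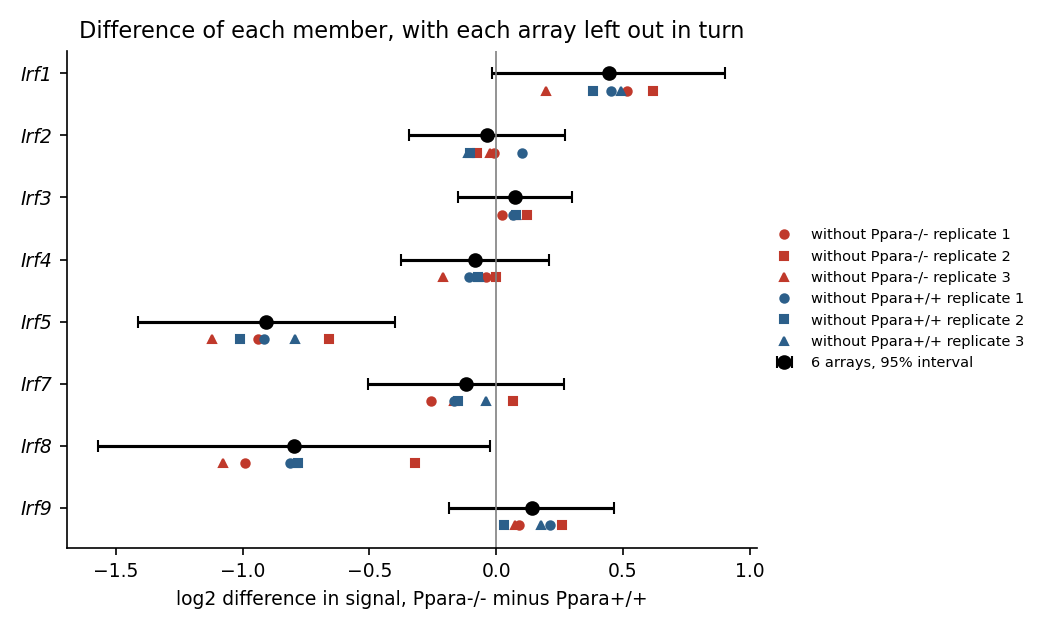
Log2 difference of each factor (Ppara-/- minus Ppara+/+, horizontal axis) with the 95% interval of limma's fit to 6 arrays in black, and the difference with each array left out as coloured points under it. Irf5 stays between -1.12 and -0.66, whereas Irf8 moves to -0.32 without Ppara-/- replicate 2.

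Irf1, the factor induced by interferon gamma, had the largest positive difference of the 8. It read 7.92, 7.71 and 8.56 in Ppara-/- replicates 1, 2 and 3, against 7.64, 7.50 and 7.72 in Ppara+/+ replicates 1, 2 and 3. Ppara-/- replicate 3 was high, and Ppara-/- replicate 2 lay 0.01 below the highest Ppara+/+ value, so the groups overlapped by that much. The means were 8.06 ± 0.44 in Ppara-/- cells and 7.62 ± 0.11 in Ppara+/+ cells (SD, n = 3 each), a log2 difference of 0.44 (SE 0.20; limma adjusted p = 0.896, unadjusted p = 0.0571; exact permutation p = 0.2). Without Ppara-/- replicate 3 the difference was 0.20 and without Ppara-/- replicate 2 it was 0.62 (limma unadjusted p = 0.188 and 0.0122, adjusted p = 1.0 and 0.505). With both arrays of brightest negative controls left out (Ppara-/- replicate 2 and Ppara+/+ replicate 1) it was 0.63 (limma unadjusted p = 0.0374, adjusted p = 0.497).

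The spare row of Irf1 read 4.85, 4.90 and 5.22 in Ppara-/- cells, against 4.62, 5.07 and 4.94 in Ppara+/+ cells. These signals are near the medians of the negative controls, and the groups overlapped. Averaged over both rows the difference of Irf1 was 0.28 (limma adjusted p = 0.997).

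Irf2, which competes with IRF1 for many sites, read 7.83, 7.96 and 7.86 in Ppara-/- cells, against 8.20, 7.79 and 7.77 in Ppara+/+ cells. The groups overlapped, with Ppara+/+ replicate 1 the highest of the 6. The log2 difference was -0.04 (SE 0.13; limma adjusted p = 0.997), and without Ppara+/+ replicate 1 it was 0.10, so its sign is not settled. The 95% interval of its signal ratio, Ppara-/- over Ppara+/+, was 0.788 to 1.21.

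Irf3, the constitutive factor that switches on Ifnb1 after viral sensing, had the narrowest spread of the 8 in Ppara+/+ cells. It read 7.49, 7.29 and 7.38 in Ppara-/- cells, against 7.30, 7.32 and 7.32 in Ppara+/+ cells. The groups overlapped, and the log2 difference was 0.07 (SE 0.10; limma adjusted p = 0.997; 95% interval -0.15 to 0.30). With 1 array left out it lay between 0.02 (without Ppara-/- replicate 1) and 0.12, when Ppara-/- replicate 2 was dropped.

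Irf7, the factor that amplifies type I interferon production, read 7.22, 6.57 and 7.04 in Ppara-/- cells, against 6.97, 7.0 and 7.22 in Ppara+/+ cells. The lowest of the 6 was again Ppara-/- replicate 2. The log2 difference was -0.12 (SE 0.17; limma adjusted p = 0.997), and without that array it was 0.07.

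Irf9, the DNA-binding subunit of ISGF3, read 7.44, 7.10 and 7.47 in Ppara-/- cells, against 7.34, 6.98 and 7.27 in Ppara+/+ cells. Replicate 2 was the lowest of its group in both genotypes and the groups overlapped. The log2 difference was 0.14 (SE 0.14; limma adjusted p = 0.997; 95% interval -0.19 to 0.47). With 1 array left out it lay between 0.03 (without Ppara+/+ replicate 2) and 0.26 (without Ppara-/- replicate 2), and without Ppara-/- replicate 2 and Ppara+/+ replicate 1 it was 0.33 (limma unadjusted p = 0.0392, adjusted p = 0.503).

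Irf4, known from plasma cells, activated lymphocytes and some macrophages and dendritic cells, was the dimmest of the 8 relative to the negative controls. It read 5.19, 5.11 and 5.53 in Ppara-/- cells, against 5.31, 5.38 and 5.39 in Ppara+/+ cells, with the Ppara+/+ values inside the Ppara-/- range. On each array 51.9% to 67.0% of the negative controls lay below it, so a difference in a low Irf4 level could be missed. The log2 difference was -0.08 (SE 0.13; limma adjusted p = 0.997), and with 1 array left out it lay between -0.21 (without Ppara-/- replicate 3) and 0.0, when Ppara-/- replicate 2 was dropped.

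The arrays differed in a similar way in several factors. Ppara-/- replicate 2 gave the lowest Ppara-/- value in 7 of the 8 factors, Irf2 being the exception. Over all genes that array was the lowest of its group in 54.4%. The range over the Ppara-/- arrays was wider than that over the Ppara+/+ arrays in 7 of the 8, again with Irf2 as the exception, beside 33.8% of all genes.

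Genes with a profile like that of Irf5 or Irf8 were looked for among 16705 other protein-coding genes, after each gene was centred on its own mean, by the root-mean-square distance over the 6 arrays. Gene models and the olfactory and vomeronasal receptor genes had been left out of these. Closest to Irf5 were Myadm, a membrane protein of the myeloid line (0.08 on the log2 scale), Ifi207, of the interferon-inducible p200 family (0.08), and Txndc5, a disulfide isomerase of the endoplasmic reticulum (0.09). Myadm read 7.58, 7.19 and 8.16 in Ppara-/- cells, against 8.50, 8.43 and 8.78 in Ppara+/+ cells. Closest to Irf8 were Cd34, the sialomucin of blood progenitors (0.06), the endosomal sodium and proton exchanger Slc9a9 (0.15) and the tropomyosin Tpm4 (0.15). Cd34 read 7.89, 6.50 and 7.99 in Ppara-/- cells, against 8.22, 8.37 and 8.41 in Ppara+/+ cells, and so shared the low value of Ppara-/- replicate 2. Irf8 itself was the 107th closest gene to Irf5 (0.28). These distances are a description of 6 arrays, and no test was made of them.

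Of 131 measured genes that act with the factors or under them, in 9 lists, 1 passed the test and was lower in Ppara-/- cells, beside 0.126% of all genes. At an unadjusted limma p under 0.05 stood 19 of them (14.5%), 8 higher and 11 lower in Ppara-/- cells, beside 5.78% of all genes. The median log2 difference of the 131 genes was 0.00. The genes were chosen with earlier results of these data known, and 8 of them stand in more than 1 list.

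The gene that passed was Ticam2, the bridging adaptor that links TLR4 to TICAM1 and so to IRF3. It fell to 4.71 ± 0.19 in Ppara-/- cells, against 6.21 ± 0.36 in Ppara+/+ cells (SD, n = 3 each; log2 difference -1.51, SE 0.18; limma adjusted p = 0.0315). Its 3 Ppara-/- values, 4.82, 4.49 and 4.81, lay near the negative-control medians and below all Ppara+/+ values, which were 6.57, 5.85 and 6.22. Over 17 other ways of processing its difference lay between -1.69 and -1.22 and it passed in 8, and it did not pass when any Ppara-/- array or Ppara+/+ replicate 3 was left out.

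Among the 18 measured sensors, adaptors and kinases that activate IRF3, IRF5 and IRF7, 1 passed, lower, and 17 did not, with a median of -0.09. At an unadjusted limma p under 0.05 stood 6, beside 5.78% of all genes, with 2 higher and 4 lower in Ppara-/- cells. Tlr9, which encodes an endosomal receptor of DNA that signals through MYD88, read 7.41, 6.39 and 7.61 in Ppara-/- cells, against 8.08, 7.96 and 8.51 in Ppara+/+ cells (log2 difference -1.05, SE 0.30; limma adjusted p = 0.457). Tlr8 read 3.96 ± 0.12 in Ppara-/- cells and 4.96 ± 0.54 in Ppara+/+ cells (SD, n = 3 each; limma adjusted p = 0.269), both near or under the negative-control medians. In both genes every Ppara-/- value was under every Ppara+/+ value, which held for 4 of the 18 genes, beside 3.63% of all genes. Of the other endosomal receptor genes in the list, named after their values were seen, Tlr7 had a log2 difference of -0.73 and Tlr3 one of 0.04 (limma adjusted p = 0.529 and 0.997). The kinase gene Ikbke, whose product phosphorylates IRF3 and IRF7, lay the other way, at 8.00 ± 0.04 in Ppara-/- cells and 7.64 ± 0.15 in Ppara+/+ cells (SD, n = 3 each; log2 difference 0.37; limma adjusted p = 0.497).

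None of 15 measured interferon receptors, Janus kinases, STATs and their inhibitors passed, with a median of -0.04. An unadjusted limma p under 0.05 was found for 2, beside 5.78% of all genes. Ifnlr1, the receptor chain for interferon lambda, read 7.18 ± 0.09 in Ppara-/- cells and 6.70 ± 0.35 in Ppara+/+ cells, and Ifngr2, the signalling chain of the interferon gamma receptor, 8.56 ± 0.12 in Ppara-/- cells and 8.93 ± 0.24 in Ppara+/+ cells (SD, n = 3 each; limma adjusted p = 0.702 and 0.748). Stat2, the partner of IRF9, had a log2 difference of 0.26 and Stat3 one of 0.24 (limma adjusted p = 0.986 and 0.997). Spi1, which encodes PU.1, had no row of its own under this rule and is not analysed here.

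None of 16 measured DNA-binding partners and co-regulators passed (median -0.01), and none had an unadjusted limma p under 0.05. The smallest p belonged to Etv6, a repressor of the ETS family, at 9.81 ± 0.14 in Ppara-/- cells and 9.53 ± 0.17 in Ppara+/+ cells (SD, n = 3 each; limma adjusted p = 0.894). After it came the lymphoid zinc finger gene Ikzf3, with a log2 difference of -0.34, the IRF2 co-repressor Irf2bp2, with one of -0.32, and Ikzf1, which encodes IKAROS, with one of -0.24.

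The output genes of the factors showed no called change in any list. Of 21 measured ISGF3 targets of type I interferon none passed, 13 differences were positive and 8 negative, and the median was 0.08. Oas2, a synthetase of the antiviral response, had the smallest p among them, with 8.61, 8.31 and 7.97 in Ppara-/- cells, against 7.59, 7.16 and 7.52 in Ppara+/+ cells (log2 difference 0.87, SE 0.18; limma adjusted p = 0.202). The RNA sensor Ddx58 (log2 difference 0.53), Oas3 (0.44) and the chaperone Rtp4 (0.31) also had every Ppara-/- value above every Ppara+/+ value, at limma adjusted p of 0.625, 0.786 and 0.889. These were the only 4 of the 21 whose groups did not overlap, beside 8.78% of all genes in either direction. An unadjusted limma p under 0.05 was found for 3, all higher in Ppara-/- cells, beside 5.78% of all genes.

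Of 18 measured IRF1 and interferon gamma targets none passed, 11 differences were positive and 7 negative, and the median was 0.09. An unadjusted limma p under 0.05 was found for 1, beside 5.78% of all genes. Cxcl9, a chemokine that attracts T cells, read 4.30 ± 0.16 in Ppara-/- cells and 3.88 ± 0.05 in Ppara+/+ cells (SD, n = 3 each; limma adjusted p = 0.382), under the lowest negative-control median in both. Log2 differences were 0.24 for the immunoproteasome subunit Psmb9, 0.27 for the GTPase Irgm1 and 0.55 for the guanylate-binding protein Gbp7 (limma adjusted p = 0.914, 0.969 and 0.997). None of the 10 measured type I interferon genes passed (median 0.05), and none had a mean above 7.91. Ifna11 had a log2 difference of 0.26 and Ifnb1 one of 0.06 (limma adjusted p = 0.859 and 0.997).

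None of 13 measured cytokine genes linked to IRF5 passed, with a median of 0.02 and none at an unadjusted limma p under 0.05. Irf5 itself had a difference of -0.91. Only 3 of the 13 had a mean above 7.91, so a change in the dimmer ones could be missed. Il6 and Il1a had means under the lowest negative-control median in both genotypes. The smallest p was that of Il12a, a subunit of interleukin 12, at 7.58 ± 0.52 in Ppara-/- cells and 7.20 ± 0.21 in Ppara+/+ cells (SD, n = 3 each; limma adjusted p = 0.997), and Il6, Ccl5 and Il1a had log2 differences of 0.17, 0.14 and 0.11. Of 11 measured genes linked to IRF4 none passed either (median 0.04). Retnla, a secreted protein of alternatively activated macrophages, had a log2 difference of 0.33, the repressor gene Bcl6 one of -0.30, the chemokine gene Ccl22 one of -0.14 and Il4ra one of 0.10 (limma adjusted p of 0.776 for Retnla and 0.997 for the others).

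**Figure D3:**
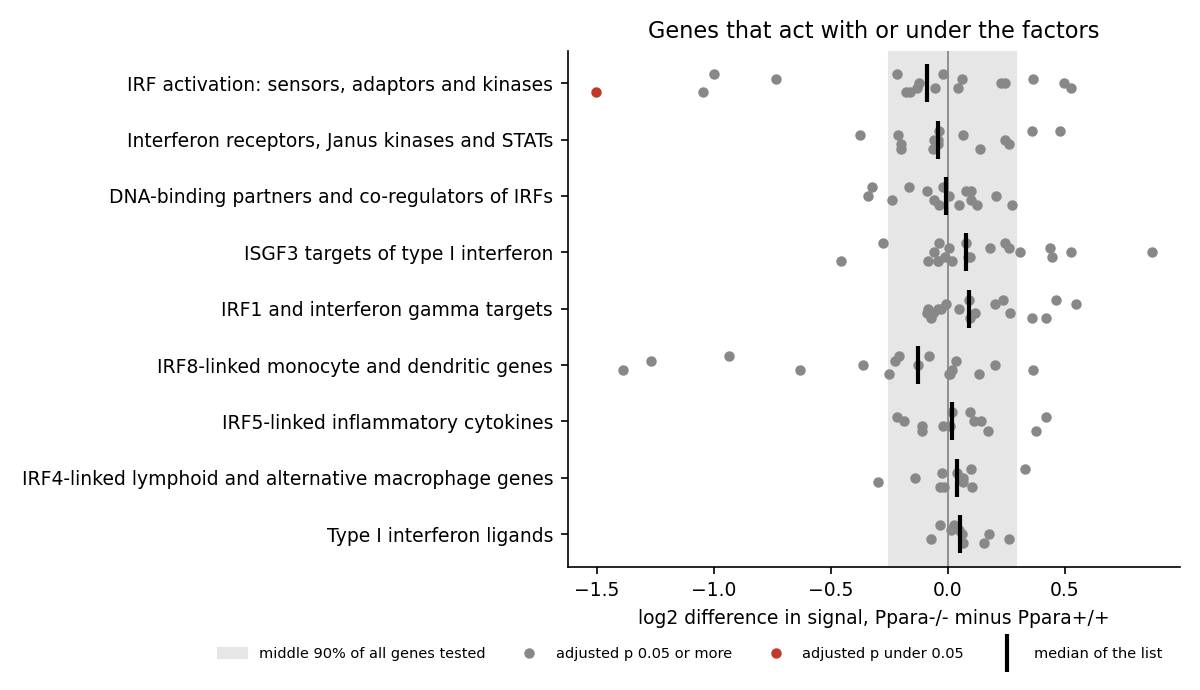
Log2 differences (Ppara-/- minus Ppara+/+) of the measured genes in each of 9 lists, one point a gene, with the list's median as a black bar and the band from -0.25 to 0.29 that holds the middle 90% of all genes tested. The 1 gene past the test, Ticam2 at -1.51, is in red.

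Of 17 measured monocyte and dendritic genes linked to IRF8 none passed, 7 differences were positive and 10 negative, and the median was -0.13. At an unadjusted limma p under 0.05 stood 6, beside 5.78% of all genes, and all 6 were lower in Ppara-/- cells. Ly86, the partner of the B cell and myeloid receptor CD180, read 8.45, 7.67 and 8.38 in Ppara-/- cells, against 9.76, 9.22 and 9.33 in Ppara+/+ cells (log2 difference -1.27, SE 0.22; limma adjusted p = 0.127). Ctss, a lysosomal protease of antigen processing, read 8.13, 7.34 and 8.33 in Ppara-/- cells, against 9.58, 9.04 and 9.35 in Ppara+/+ cells (log2 difference -1.39, SE 0.25; limma adjusted p = 0.135). In both genes the groups lay apart and Ppara-/- replicate 2 was the lowest. Csf1r, the receptor of the growth factor M-CSF, had a log2 difference of -0.94 and Klf4, a factor of monocyte differentiation, one of -0.63 (limma adjusted p = 0.361 and 0.748). The dendritic genes Xcr1, Clec9a, Zbtb46 and Batf3, named after their values were seen, were not lower. Their log2 differences were 0.13, 0.04, 0.02 and 0.00 (limma adjusted p = 0.997 for each). Xcr1, Clec9a and Zbtb46 had means under 7.91, so a change in them could be missed. Of the 17 genes 4 are also among the monocyte markers below, and Csf1r and Cx3cr1 of the 6 are counted in both lists.

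Markers of monocytes and macrophages had low Ppara-/- values beside Irf5 and Irf8. Like the pathway lists, these markers, Clec4a1 among them, were chosen with earlier results of these data known, so their counts only describe. Of 11 measured markers 9 had a negative difference, and the median was -0.66. In 7 every Ppara-/- value lay below every Ppara+/+ value, beside 3.63% of all genes. The 2 with a positive log2 difference, named after their values were seen, were Ccr2 at 0.37 and Cd14 at 0.23 (limma adjusted p = 0.875 and 0.997). Clec4a1, a lectin of monocytes, was the 1 marker that passed and fell to 5.10 ± 0.12 in Ppara-/- cells, against 7.18 ± 0.40 in Ppara+/+ cells (SD, n = 3 each; log2 difference -2.08, SE 0.19; limma adjusted p = 0.00977). Its Ppara-/- values, 5.03, 5.02 and 5.24, lay near the negative-control medians. Over 17 other ways of processing Clec4a1 passed in 14. It did not pass without Ppara-/- replicate 1, with arrays centred on named genes or without both arrays of brightest negative controls. The mean signal of the 11 markers was 8.12, 7.89 and 8.29 in Ppara-/- replicates 1, 2 and 3, against 8.92, 8.55 and 8.82 in Ppara+/+ replicates 1, 2 and 3, with Ppara-/- replicate 2 again the lowest. In sorted cells measured in bulk, fewer cells of a monocytic kind and less RNA per cell cannot be told apart, and the part of these markers in the Irf5 and Irf8 values was not tested.

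**Figure D4:**
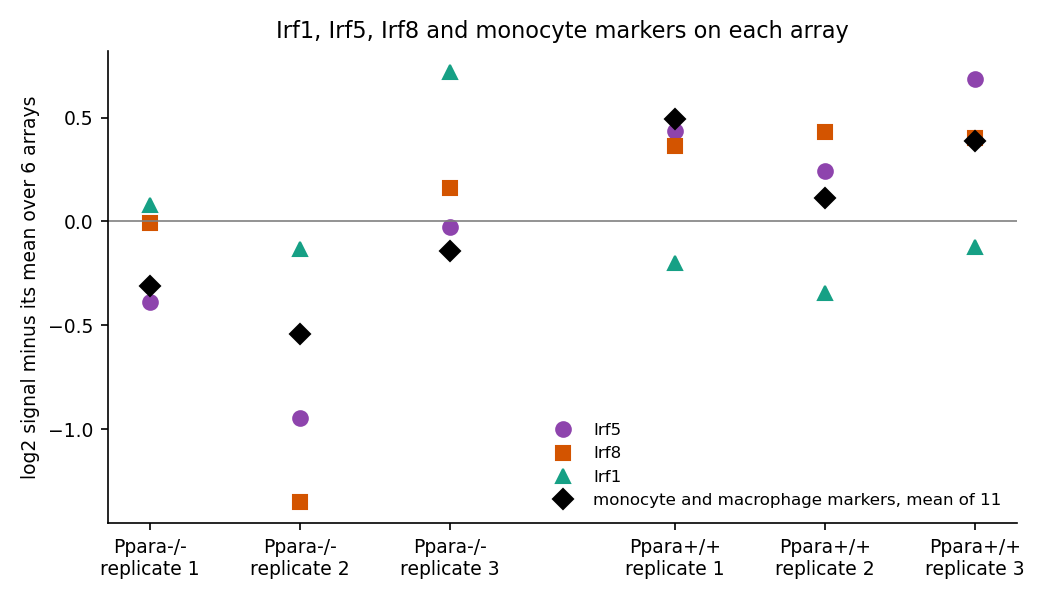
Log2 signal of Irf5, Irf8 and Irf1 and the mean of 11 monocyte and macrophage markers on each array, each minus its own mean over the 6 arrays. Irf5, Irf8 and the markers are lowest on Ppara-/- replicate 2 (-0.95, -1.35 and -0.54) and positive on the Ppara+/+ arrays, whereas Irf1 is highest on Ppara-/- replicate 3 (0.72).

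Neutrophil markers, of the lineage that IRF8 holds back, had a median of 0.08 over 10 genes, and their mean signal ran from 9.99 to 10.17 on the Ppara-/- arrays, against 9.63 to 10.12 on the Ppara+/+ arrays, with none past the test. An unadjusted limma p under 0.05 was found for 2 of the 10, beside 5.78% of all genes. These 2, named after their values were seen, lay in opposite directions. Their log2 differences were 1.28 for Retnlg and -0.65 for Mmp8 (limma adjusted p = 0.19 and 0.409). Markers of other cells that use the same factors mostly had low signals. Of 47 measured markers of conventional and plasmacytoid dendritic cells, B and plasma cells, T cells, NK cells, erythroid cells, and stroma and endothelium, 1 had a mean above 7.91 and none passed. Of the 8 factors too only 1 had a mean above 7.91, as had 4379 of all 30142 genes. The line therefore does not show that such cells were absent. Of the 47, 3 had an unadjusted limma p under 0.05, a share near the 5.78% of all genes. These 3, named after their values were seen, were lower in Ppara-/- cells. Their log2 differences were -1.03 for Pdgfrb, -0.77 for Cd209a and -0.40 for Cd79b (adjusted p = 0.0698, 0.225 and 0.615), and their part in the Irf5 and Irf8 values was not tested. The mean signal of the plasmacytoid dendritic markers was 5.58 to 5.69 on the Ppara-/- arrays, against 5.37 to 5.73 on the Ppara+/+ arrays, and that of the B and plasma cell markers was 4.80 to 4.93 on the Ppara-/- arrays, against 4.79 to 4.97 on the Ppara+/+ arrays.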

How the data were processed

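RNA was measured on Affymetrix arrays in 3 Ppara-/- and 3 Ppara+/+ samples, grouped by their titles. For every probe set the deposited table gives a log2 signal on each array. The submitters' processing notes name RMA (background correction, quantile normalization and summary of probes) and limma, with no version. Quantile normalization would remove a shift shared by most genes. The table held 72688 rows, 6732 of them controls. A platform annotation table paired 30604 rows with 1 symbol and 2146 with several, and left 33206 unnamed here. Symbols were updated by gene ID through the RefSeq table of GRCm38.p6.

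All 30142 genes were fitted with limma 3.58.1 in R 4.3.3 (lmFit, eBayes, two-sided, no covariates), with Benjamini-Hochberg adjustment over all of them. Single values were also compared by an exact permutation test. The number of arrays limits the precision, and no filter on dim genes was set. The text names the 8 factors, up to 4 genes per pathway list (those past the threshold, then smallest p), markers past the threshold and the 3 nearest profiles, with exceptions stated. The members, the lists and the tests were chosen with earlier results of these data known. Alternatives changed the prior, normalization, filter, row per gene, rows tested, array weights, covariate, block, threshold or arrays used. Further steps used pandas 2.3.3, scipy 1.17.1 and matplotlib 3.10.9 under Python 3.11.15.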

Additional observations from a re-analysis of the deposited data

How the results depend on the processing

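None of the 8 factors passed under any of 19 other settings, and none of their 137 recomputed differences had an adjusted limma p under 0.05. Among genes above the 95th percentile of negative controls only Irf8 was tested, so the other factors could not pass there. Signs turned 9 times, in small differences. With arrays centred on the negative controls Irf2 was at 0.0867, Irf4 at 0.04 and Irf7 at 0.0033. Irf2 was at 0.0391 with array weights, 0.0478 with the negative-control covariate and 0.065 without the pair of arrays whose negative controls were brightest. Irf7 was at 0.02 without the same pair. With 1 array left out Irf2 lay between -0.1117 and 0.1033 (positive without Ppara+/+ replicate 1) and Irf7 between -0.2583 and 0.0667 (positive without Ppara-/- replicate 2). The count over all genes was 38. It was 70 with a trended and robust prior, 23 after another quantile normalization, 13 with arrays centred on the median of named genes, 22 with arrays centred on the negative controls, 1 among genes above the 95th percentile of negative controls (4379 tested), 271 with array weights, 0 without that pair of arrays (limma; 2870 genes at an unadjusted p under 0.05) and 76 at an adjusted p under 0.1. With 1 array left out it was 6 to 38, 6 when Ppara-/- replicate 1 was dropped, 17 for Ppara-/- replicate 2 as for replicate 3, and 13 for Ppara+/+ replicate 3. Of the pathway genes 1 passed, and with 1 array left out 0 to 1 did. Their count was 0 after another quantile normalization, with arrays centred on named genes and over all rows. It was also 0 with the covariate and without the pair of arrays. Above the 95th percentile of negative controls it was 0 as well, where 42 were tested and Ticam2 was not. It was 5 with array weights (Ticam2, Tlr8, Ly86, Ctss and Oas2). Apart from fewer genes or arrays, the cause was not tested. The titles number the replicates but do not say whether the numbers pair the samples. Deviations from the group means correlated at -0.326, -0.469 and 0.108 for same-numbered arrays. These values cannot settle it, since deviations in a group of 3 depend on each other. The highest correlation, 0.5, joined Ppara-/- replicate 2 and Ppara+/+ replicate 1, the pair with the brightest negative controls. With the replicate block 12 genes and 0 factors passed. Signals near the negative controls, as of Irf4, limit what could be seen.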

Other observations

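Irf1 and Irf2 act on many of the same sites in opposite ways, so their log2 difference within each array was also looked at. Irf1 minus Irf2 was 0.09, -0.25 and 0.70 on the Ppara-/- arrays, against -0.56, -0.29 and -0.05 on the Ppara+/+ arrays. The groups overlapped at Ppara-/- replicate 2. The pair was chosen for its known roles but with earlier results of these data known, and no test was made.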
